A study of Mus musculus with 9 samples.

Results

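Calcium sets the tone of an artery, and the 10 genes described here carry it into the cytosol of muscle cells, release it from the sarcoplasmic reticulum or pump it back. They are Cacna1c, Cacna1h, Cacnb2 and Cacna2d1, which encode subunits of voltage-gated calcium channels, Ryr2 and Itpr1, which encode release channels of the store, Atp2a2, Pln and Casq2, which encode the store's pump, the pump's inhibitor and a calcium-binding protein of its lumen, and Stim1, which encodes the sensor of store filling. The genes were picked by name for their role in calcium handling, with earlier results of these data known, and 10 of 10 were found in each of the 3 tables deposited for the series, which together hold 17093 genes.

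The tissue was the media of the femoral artery of C57BL/6 mice, that is, its smooth muscle layer, and RNA-seq libraries were made in 3 groups of 3. In the inhibitor-treated group the arteries had been wire-injured and were taken at day 14 from mice that received VS-4718, an inhibitor of focal adhesion kinase (FAK), at 50 mg/kg by oral gavage in 2 doses per day for 2 weeks. The injured group had the same wire injury and the same day 14, and the sham group had a sham operation. Both of these groups received the vehicle, 10 mM citrate, in 2 doses per day, given for 2 weeks in the injured group. Per the labels, fat and adventitia were stripped off and the lumen was flushed with a lysis reagent against endothelial and immune cells. The labels give neither the age and sex of the mice nor the number of animals behind a library, so the p-values below measure only the spread between these libraries, which may be technical. By its title, the study is about FAK and gene regulation in smooth muscle cells that switch phenotype, and the comparisons ask how injury, and the inhibitor in injured arteries, alter these transcripts.

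In arterial smooth muscle, depolarisation opens L-type channels, whose pore is the Cacna1c product, and the calcium that enters binds calmodulin, which activates myosin light chain kinase. Ryanodine receptors and inositol trisphosphate (IP3) receptors release stored calcium, the SERCA pump encoded by Atp2a2 refills the store, and phospholamban, the Pln product, slows that pump until it is phosphorylated. STIM1 senses an emptied store and opens ORAI channels in the plasma membrane. Contractile smooth muscle is known for high levels of this machinery, and cultured smooth muscle cells that leave the contractile state are known to lower much of it.

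Between 14674287 and 21245607 reads were recovered per library, and the lowest count of any of the 10 genes in any library was 86 reads, for Casq2, so each passed the minimum of a mean of 10 normalised counts in every comparison. Levels over all 3 groups are normalised read counts, rescaled with 1 factor per library. Log2 fold changes, their standard errors and their Benjamini-Hochberg adjusted p-values come from limma within each comparison's own table. Markers of other cell types differed between libraries. The mean log2 level of 22 skeletal muscle markers was 6.60, 9.63 and 7.97 in inhibitor-treated replicates 1, 2 and 3, 10.5, 13.0 and 9.48 in the injured and 7.64, 7.38 and 9.55 in the sham libraries. Smooth muscle markers lay at 14.7 to 14.8 in inhibitor-treated, 13.0 to 13.2 in injured and 14.5 to 14.9 in sham libraries, and leukocyte markers at 7.49 to 8.43, 8.99 to 9.87 and 5.56 to 6.15 in the same order of groups. Over all genes tested, 16.8% fell and 20.6% rose with injury, and 17.6% were higher and 18.5% lower under the inhibitor than in injured arteries. Of the 10 smooth muscle markers 9 fell with injury and 9 were higher with the inhibitor than without it in injured arteries. Of 10 endothelial markers 7 rose with injury and 7 were lower under the inhibitor than in injured arteries. Of 8 fibroblast markers 6 rose and 1 fell with injury, and 7 were lower and 1 higher under the inhibitor. Of 9 Schwann and neuronal markers 6 rose with injury and 3 were lower under the inhibitor. Erythroid markers lay at 9.88 to 10.9 in inhibitor-treated libraries, at 3.45 to 4.12 in injured and at 3.97 to 4.66 in sham libraries, and hepatocyte markers at 10.9 in inhibitor-treated replicate 3 and at 1.97 to 3.58 in the 8 others. In RNA from whole tissue, fewer cells of a type and less RNA per cell cannot be told apart.

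The promoters of 4 of these genes are shown, picked by the results below: Ryr2 and Cacnb2, which had the largest gains under the inhibitor among the 10, Pln, which did not pass the test of injury, and Casq2, which moved against the rest. They are RefSeq sequences on GRCm38.p6, from 250 bases before to 50 after the start of transcription, read on the gene's own strand. They cover chr13:12106896-12107195 on the minus strand for Ryr2, and on the plus strand chr2:14604056-14604355 for Cacnb2, chr10:53337436-53337735 for Pln and chr3:102086165-102086464 for Casq2. Cacnb2 has another promoter, at chr2:14823842-14824141, that is not shown. Capitals mark GGGCGG on either strand (read as CCGCCC on the other; matches may overlap), TATAAA and the MEF2 box.
Ryr2: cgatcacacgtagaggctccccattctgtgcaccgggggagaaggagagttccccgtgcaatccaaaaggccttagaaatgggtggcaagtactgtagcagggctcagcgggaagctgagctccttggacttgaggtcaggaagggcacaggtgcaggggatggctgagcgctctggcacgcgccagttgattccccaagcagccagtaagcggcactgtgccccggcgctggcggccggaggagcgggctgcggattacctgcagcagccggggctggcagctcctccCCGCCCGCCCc
Cacnb2: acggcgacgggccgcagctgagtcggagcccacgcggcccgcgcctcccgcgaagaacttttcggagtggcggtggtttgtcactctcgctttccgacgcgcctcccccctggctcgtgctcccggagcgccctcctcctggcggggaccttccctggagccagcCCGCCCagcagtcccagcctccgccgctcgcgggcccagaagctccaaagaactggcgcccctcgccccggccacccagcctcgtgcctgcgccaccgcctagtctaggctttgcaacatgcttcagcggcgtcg
Pln: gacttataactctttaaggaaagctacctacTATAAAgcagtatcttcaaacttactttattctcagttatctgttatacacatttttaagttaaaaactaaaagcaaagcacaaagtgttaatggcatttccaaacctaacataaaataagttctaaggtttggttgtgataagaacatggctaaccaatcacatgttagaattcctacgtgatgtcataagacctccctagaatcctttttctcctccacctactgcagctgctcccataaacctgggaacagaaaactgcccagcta
Casq2: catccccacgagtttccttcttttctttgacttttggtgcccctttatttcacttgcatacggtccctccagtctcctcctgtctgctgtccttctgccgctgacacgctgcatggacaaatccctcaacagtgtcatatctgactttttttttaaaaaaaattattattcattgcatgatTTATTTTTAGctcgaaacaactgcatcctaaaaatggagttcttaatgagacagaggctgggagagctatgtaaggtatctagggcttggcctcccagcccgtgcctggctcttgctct

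Of the 10 genes, 7 matched the RefSeq promoter table, with 10 promoters between them; Cacna1h, Itpr1 and Atp2a2 are named only. GGGCGG, the core of a GC box, was found in a promoter of Cacna1c, Cacnb2, Cacna2d1, Ryr2 and Stim1, 5 genes in all, and in 35.7% of all 32851 promoters of that length. TATAAA stood in the Pln promoter alone, its first base 219 bases before the start, and in 13.6% of all promoters. The MEF2 box was searched on both strands as a pyrimidine, TA, 4 bases that are A or T, TA and a purine. It was found once, in the Casq2 promoter, as TTATTTTTAG with its first base 69 bases before the start, and in 3.19% of all promoters. The CArG box that serum response factor binds, searched as CC, 6 bases that are A or T, and GG, was found in 0 of the 10 promoters and in 1.63% of all promoters. The MCAT element, CATTCC, was also found in 0 of the 10 (14.7% of all promoters), as were the E box CACGTG (7.15%) and the cAMP response element TGACGTCA (1.79%). An absent match says only that these letters are not in this window. The Pln promoter held 36.0% G and C with 1 CpG site and the Casq2 promoter 44.7% with 6. The Ryr2 promoter held 65.3% with 18 and the Cacnb2 promoter shown 71.7% with 35. The other Cacnb2 promoter held 44% with 4 and none of the searched sequences. Which Cacnb2 start these arteries use was not tested. The median over all promoters was 52.7% with 7 CpG sites.

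Most of this machinery was lower after injury. Against sham arteries, 7 of the 10 genes fell in injured arteries and 1, Casq2, rose, while Cacna1h and Pln did not pass the test (limma, adjusted p under 0.05). Over all 16278 genes tested in that table, 16.8% fell and 20.6% rose. With quantile normalisation that balance turned, with 3344 genes lower and 2842 higher instead of 2730 and 3346. The inhibitor-treated arteries differed from the injured arteries the other way round: 8 of the 10 genes were higher, Casq2 was lower, and Cacna2d1 did not pass. Among all 16901 genes tested there, 17.6% were higher and 18.5% lower. Since the 10 genes were chosen with earlier results known, their counts describe them and are no independent evidence of a direction. Between inhibitor-treated and sham arteries, limma called 0 of the 10 genes, where 5.15% of 16166 genes were higher and 0.934% lower. Without adjustment, 4 of the 10 (Cacna1h, Cacnb2, Ryr2 and Pln) had a limma p under 0.05. The share of all genes at that unadjusted threshold was not computed, so whether the 4 exceed it is not known. With edgeR, DESeq2 and the authors' deposited table, 0 of the 10 were called. With quantile normalisation, the share of higher genes among those called in that last comparison was 73.7% instead of 84.6%. With all 9 libraries in 1 fit, 721 genes were higher and 38 lower, instead of 832 and 151.

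The 2 groups did not overlap for 8 of the 10 genes between injured and sham arteries, for 10 of 10 between inhibitor-treated and injured arteries, and for 3 of 10 (Cacnb2, Ryr2 and Pln) between inhibitor-treated and sham arteries. Over all genes tested, 51.3%, 51.6% and 27.9% did not overlap in the 3 comparisons in that order. On the rescaled counts given below, the inhibitor-treated and sham ranges of Cacnb2 and Ryr2 overlapped slightly. The median log2 fold change of the 10 genes was -0.69 for injured against sham, 0.94 for inhibitor-treated against injured and 0.17 for inhibitor-treated against sham, and that of all genes lay within 0.0073 of 0 each time. The first 2 comparisons share the injured libraries, so their opposite signs are not independent of each other.

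**Figure D1:**
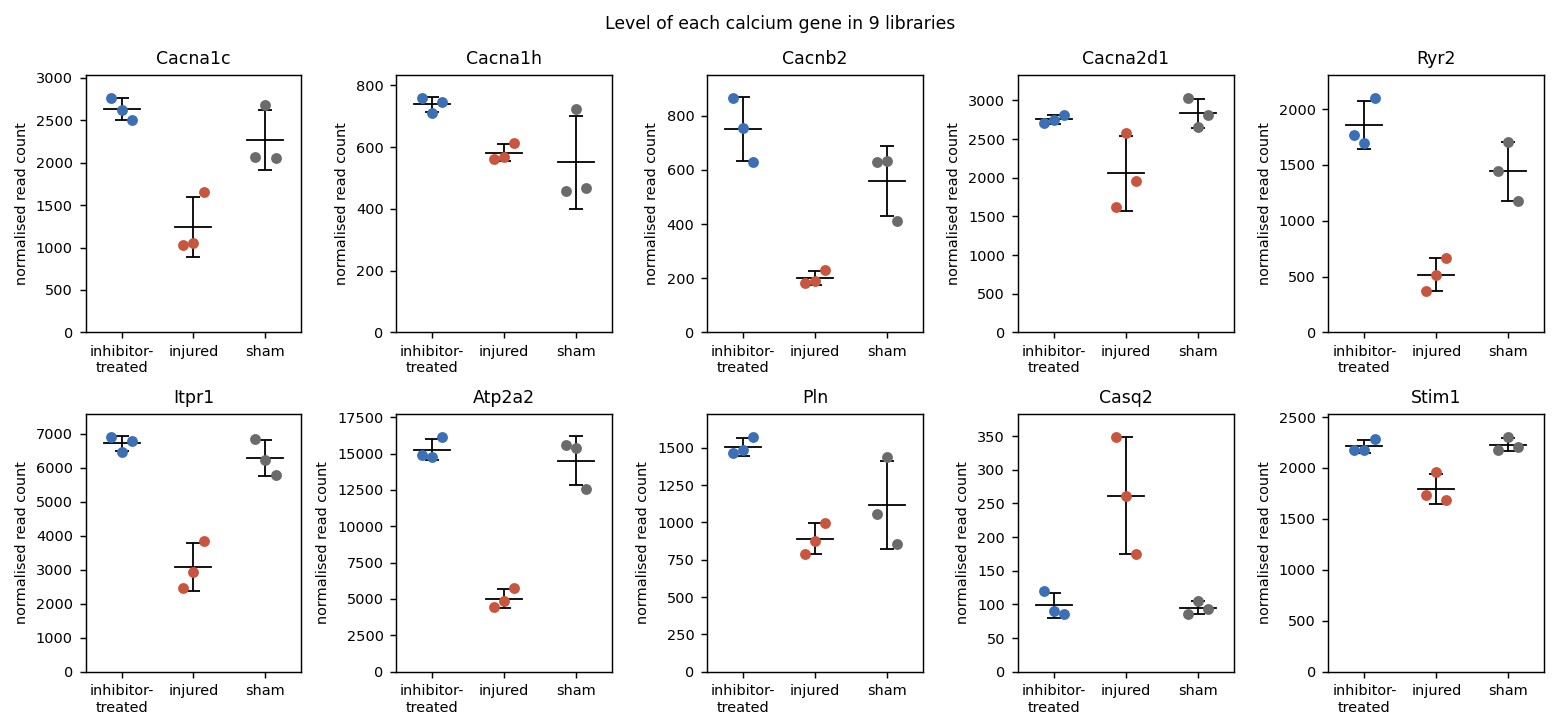
Normalised read counts (y axis, from 0) of each of the 10 genes in 3 inhibitor-treated, 3 injured and 3 sham libraries; points are libraries, long bars are means and error bars are 1 SD. Atp2a2, Ryr2, Itpr1 and Cacnb2 are low in all 3 injured libraries, and Casq2 is high there.

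Among the channel genes, Cacna1c (ENSMUSG00000051331, GRCm38 chromosome 6, 118587240 to 119196418, minus strand) encodes Cav1.2, the pore of the L-type channel and the target of dihydropyridine drugs. It stood at 2763, 2626 and 2503 normalised counts in the inhibitor-treated libraries, at 1031, 1050 and 1653 in the injured and at 2062, 2675 and 2057 in the sham libraries. All 3 injured libraries lay under every other library, replicate 3 least so, and the inhibitor-treated range overlapped the sham range. Cacna1c fell by 0.89 ± 0.20 on the log2 scale with injury (adjusted p = 0.0082) and was higher by 1.12 ± 0.19 with the inhibitor than in injured arteries (adjusted p = 0.00338). Against sham, the inhibitor-treated arteries differed by 0.24 (95% interval -0.0047 to 0.48, adjusted p = 0.246). That difference passed when sham replicate 2, the highest sham library, was left out (0.36, adjusted p = 0.0478).

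Cacnb2 (ENSMUSG00000057914, chromosome 2, 14603088 to 14987908, plus strand) encodes a beta subunit, the cytoplasmic partner that brings the pore to the membrane and tunes its opening. Its counts were 866, 754 and 630 in the inhibitor-treated, 181, 192 and 231 in the injured and 631, 634 and 411 in the sham libraries. The injured values lie far under both other groups, and inhibitor-treated replicate 3 is level with sham replicates 1 and 2. Cacnb2 fell by 1.45 ± 0.20 on the log2 scale with injury, or 2.74-fold (adjusted p = 0.000705), and the inhibitor-treated arteries held 3.71-fold more than the injured (log2 fold change 1.89 ± 0.16, adjusted p = 0.000199). In the table of inhibitor-treated and sham arteries these groups did not overlap, by a difference of 0.45 (95% interval 0.032 to 0.87) that did not pass (adjusted p = 0.206). It was 0.25 without sham replicate 3, the lowest sham library (adjusted p = 0.349), and 0.24 with inhibitor-treated replicate 2 and sham replicate 3 left out (adjusted p = 0.513). Within the library, Cacnb2 per kilobase of exon stood at 0.455 ± 0.050 of Cacna1c in inhibitor-treated, 0.266 ± 0.037 in injured and 0.397 ± 0.086 in sham arteries (SD, n = 3 each). The injured ratios lay under all 6 others.

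Cacna2d1 (ENSMUSG00000040118, chromosome 5, 15934691 to 16374511, plus strand) encodes the extracellular alpha2delta-1 subunit that binds gabapentin and promotes channel surface expression. It moved less: 2709, 2742 and 2816 in the inhibitor-treated libraries, 1627, 2585 and 1955 in the injured and 3032, 2661 and 2813 in the sham libraries. Injured replicate 2, the library highest in skeletal muscle markers, came close to the other groups without reaching them; skeletal muscle also expresses this subunit, and its part in the value was not tested. Cacna2d1 fell by 0.49 ± 0.17 with injury (adjusted p = 0.0478). The log2 fold change no longer passed when injured replicate 1 or 3 or any 1 of the sham libraries was left out (adjusted p = 0.0728 to 0.153), without injured replicate 2 it was -0.67 (adjusted p = 0.00852), and with library weights -0.19 (adjusted p = 0.213). Under the inhibitor it differed from injured arteries by 0.45 ± 0.16 (95% interval 0.074 to 0.83, adjusted p = 0.0646), by 0.63 without injured replicate 2 (adjusted p = 0.00962), by 0.30 without injured replicate 1 (adjusted p = 0.131) and by 0.15 with library weights (adjusted p = 0.259). The authors' deposited table gives an adjusted p of 0.0493 for it.

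Cacna1h (ENSMUSG00000024112, chromosome 17, 25374285 to 25433783, minus strand) encodes Cav3.2, a T-type pore that opens at more negative voltages. Its levels were 759, 710 and 746 in the inhibitor-treated, 563, 569 and 614 in the injured and 460, 723 and 468 in the sham libraries. The sham group spans the injured values, with sham replicate 2 on its own near the inhibitor-treated level. Injured and sham arteries differed by 0.11 ± 0.18 (95% interval -0.31 to 0.52, adjusted p = 0.681), and by -0.0079 to 0.32 with any 1 library left out. The inhibitor-treated arteries were higher than the injured by 0.35 ± 0.09 (adjusted p = 0.0240), a call lost when injured replicate 2 or any 1 of the inhibitor-treated libraries was left out (adjusted p = 0.0664 to 0.0989). Against sham the difference was 0.47 (95% interval 0.093 to 0.84, adjusted p = 0.150), and 0.68 without sham replicate 2 (adjusted p = 0.00876). The balance between both pores differed between groups: Cacna1h per kilobase was 0.610 ± 0.032 of Cacna1c in inhibitor-treated, 1.06 ± 0.22 in injured and 0.522 ± 0.057 in sham arteries, and the lowest injured ratio, 0.806, lay over the highest of the 6 others, 0.647.

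**Figure D2:**
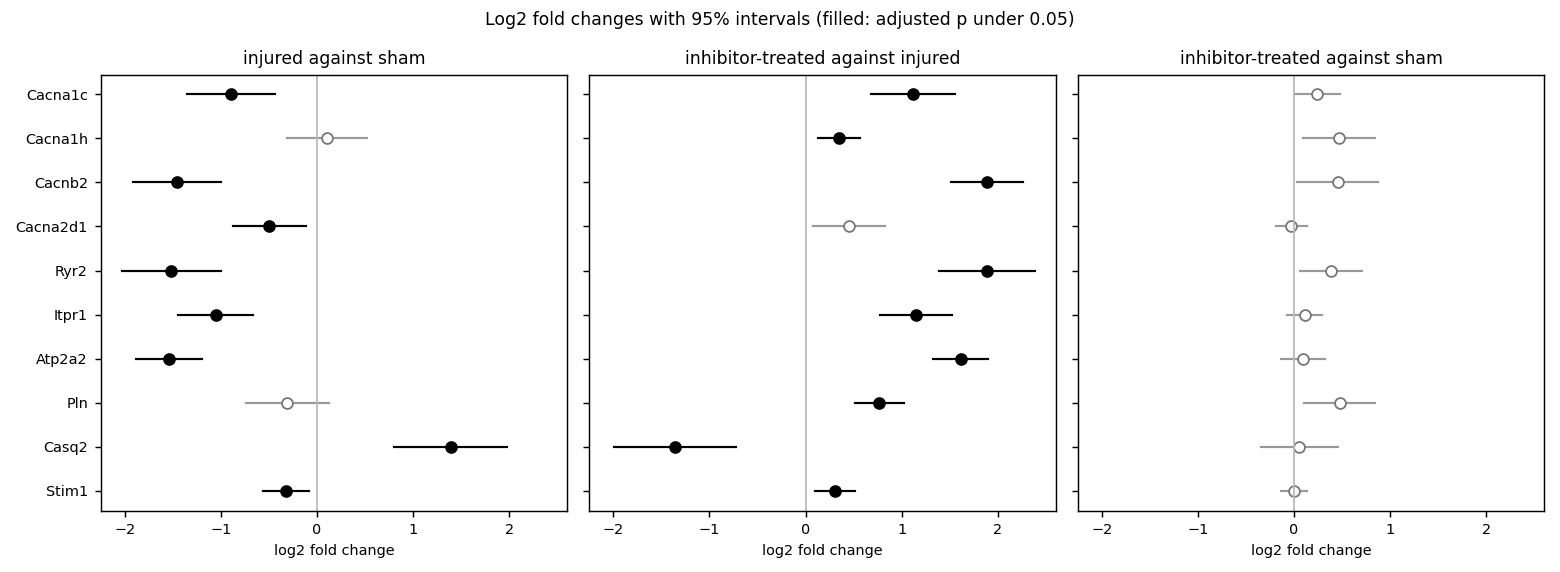
Log2 fold changes (x axis) of the 10 genes in each comparison with 95% intervals from limma; filled points have an adjusted p under 0.05. In injured against sham arteries 7 genes lie left of 0 and filled and Casq2 lies right, in inhibitor-treated against injured arteries 8 lie right and filled and Casq2 left, and in inhibitor-treated against sham arteries no point is filled.

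Of the release channels, Ryr2 (ENSMUSG00000021313, chromosome 13, 11553102 to 12106945, minus strand) encodes the cardiac ryanodine receptor, which in smooth muscle gives rise to calcium sparks. It was counted at 1769, 1699 and 2100 in the inhibitor-treated, at 366, 516 and 663 in the injured and at 1447, 1708 and 1174 in the sham libraries. The injured libraries were the 3 lowest by a wide margin, and inhibitor-treated replicate 2 was just under sham replicate 2. Ryr2 fell by 1.52 ± 0.22 with injury (2.86-fold, adjusted p = 0.00105) and was higher by 1.89 ± 0.21 under the inhibitor than in injured arteries (3.70-fold, adjusted p = 0.000640). Against sham it differed by 0.39 (95% interval 0.067 to 0.70, adjusted p = 0.161), and by 0.25 without sham replicate 3 (adjusted p = 0.287).

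Itpr1 (ENSMUSG00000030102, chromosome 6, 108213096 to 108551109, plus strand) encodes the type 1 IP3 receptor, through which agonists such as noradrenaline release stored calcium. It stood at 6900, 6466 and 6785 in the inhibitor-treated, 2466, 2943 and 3847 in the injured and 6856, 6217 and 5800 in the sham libraries. Its 3 inhibitor-treated values are close together and overlap the upper sham values, and the injured values are all lower. Itpr1 fell by 1.06 ± 0.17 with injury (adjusted p = 0.00156). The gain under the inhibitor was 1.15 ± 0.16 (adjusted p = 0.00156) and the difference from sham 0.11 (95% interval -0.069 to 0.29, adjusted p = 0.470), which was 0.17 without sham replicate 1 and 0.057 without sham replicate 3. Per kilobase, Ryr2 made up 0.176 ± 0.018 of Itpr1 in inhibitor-treated, 0.105 ± 0.009 in injured and 0.146 ± 0.025 in sham arteries, with the injured ratios under all 6 others.

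Atp2a2 (ENSMUSG00000029467, chromosome 5, 122453513 to 122502225, minus strand) encodes SERCA2, the pump that returns calcium to the store. It was the most abundant of the 10 genes per kilobase in every group. Its counts were 14927, 14766 and 16125 in the inhibitor-treated, 4479, 4840 and 5767 in the injured and 15608, 15399 and 12547 in the sham libraries. The injured libraries were all far under the rest, and the inhibitor-treated and sham ranges overlapped. Atp2a2 fell by 1.54 ± 0.15 with injury (2.90-fold, adjusted p = 0.000128), and it was 3.06-fold higher under the inhibitor than in injured arteries (log2 fold change 1.61 ± 0.12, adjusted p = 0.000132). The 95% interval of its difference from sham ran from -0.14 to 0.32 (estimate 0.09, adjusted p = 0.645). In injured replicate 2, where the skeletal muscle markers peaked, its 4840 counts lay between those of the other injured libraries.

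Pln (ENSMUSG00000038583, chromosome 10, 53337667 to 53345987, plus strand) stood at 1462, 1483 and 1570 in the inhibitor-treated, 791, 878 and 998 in the injured and 1057, 1436 and 858 in the sham libraries. Sham replicate 3 lay inside the injured range and sham replicate 2 just under the inhibitor-treated range. The difference between injured and sham arteries, -0.31 ± 0.19 (95% interval -0.74 to 0.12), did not pass (adjusted p = 0.233). It was -0.11 without sham replicate 2 (adjusted p = 0.648) and -0.48 without sham replicate 3 (adjusted p = 0.0771). The difference between inhibitor-treated and sham arteries, 0.47 (95% interval 0.10 to 0.84, adjusted p = 0.142), did not pass either. It was 0.67 without sham replicate 2 (adjusted p = 0.0214) and 0.30 without sham replicate 3 (adjusted p = 0.231). Inhibitor-treated arteries were higher than injured arteries by 0.77 ± 0.11 (adjusted p = 0.00171). The opposite-strand transcript Gm47644 covers 59.6% of the Pln exon bases in GENCODE, and the use of strand in counting is not given in the sources used here, so reads of the 2 cannot be told apart. For the other members, no single gene on the opposite strand covered more than 4.67% of the exon bases. That was Gm10849 over Cacnb2, where Gm13269 and Gm10848 covered 1.81% and 0.839%.

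Among the gene pairs compared as ratios, inhibitor to pump was the only pair that separated all 3 groups. In every other pair the inhibitor-treated and sham ranges overlapped. Among single genes, 27.9% did not overlap in that comparison. Pln per kilobase was 0.216, 0.221 and 0.215 of Atp2a2 in the inhibitor-treated, 0.389, 0.400 and 0.382 in the injured and 0.149, 0.206 and 0.151 in the sham libraries. Every injured ratio was over every inhibitor-treated one, and every inhibitor-treated ratio over every sham one, although sham replicate 2 came near. With 3 libraries a group the smallest two-sided p of an exact permutation test is 0.1, so no p is given for these ratios.

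**Figure D3:**
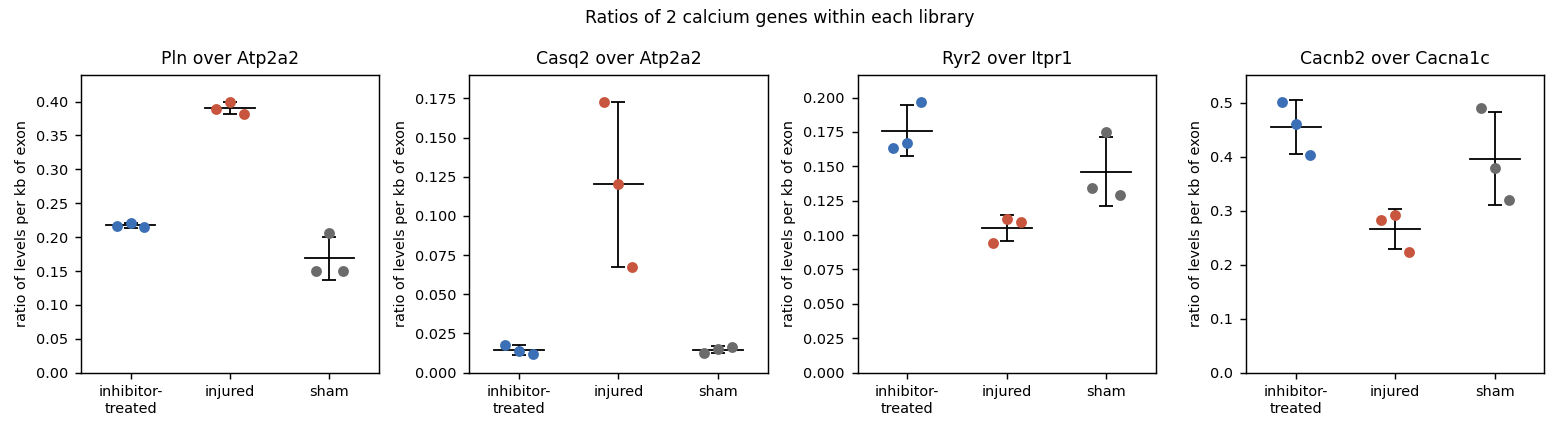
Ratios of the levels per kilobase of exon (y axis, from 0) of 2 genes within each inhibitor-treated, injured and sham library; points are libraries, long bars are means and error bars are 1 SD. Pln over Atp2a2 averaged 0.217 in inhibitor-treated, 0.390 in injured and 0.169 in sham arteries, Casq2 over Atp2a2 was high in injured arteries, and Ryr2 over Itpr1 and Cacnb2 over Cacna1c were low there.

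Casq2 (ENSMUSG00000027861, chromosome 3, 102086415 to 102146514, plus strand) encodes calsequestrin 2, the calcium buffer of the store lumen in heart and slow skeletal muscle. Its counts were 120, 89.9 and 86.3 in the inhibitor-treated libraries, 348, 262 and 174 in the injured and 86.1, 106 and 93.6 in the sham libraries. The injured libraries were all higher and differed widely among themselves, and the other groups overlapped. Casq2 rose by 1.39 ± 0.26 with injury (2.62-fold, adjusted p = 0.00323) and was 2.56-fold lower under the inhibitor than in injured arteries (log2 fold change -1.35 ± 0.27, adjusted p = 0.00745). Against sham it differed by 0.05 (95% interval -0.35 to 0.45, adjusted p = 0.893). With Atp2a2 moving the other way, Casq2 per kilobase was 0.0144 ± 0.0031 of Atp2a2 in inhibitor-treated, 0.120 ± 0.053 in injured and 0.0147 ± 0.0022 in sham arteries.

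Skeletal muscle and leukocyte markers were also higher in injured arteries, and their part in the Casq2 result was not tested. Of the 22 skeletal muscle markers, 14 rose with injury and 4 were lower under the inhibitor; summed, they came to 4304 to 50074 normalised counts in inhibitor-treated, 43236 to 703882 in injured and 8499 to 41051 in sham libraries, with 0 of 22 at 0 in any library. Casq2 was highest in injured replicate 1 and these markers in injured replicate 2. With inhibitor-treated replicate 2, injured replicate 2 and sham replicate 3 left out, the highest of each group in these markers, Casq2 rose with injury by 1.35 (adjusted p = 0.0286). Its difference between inhibitor-treated and injured arteries was then -1.27, which did not pass (adjusted p = 0.0862). Injured replicate 1 stayed in, with a mean log2 marker level of 10.5, above the 9.63 of inhibitor-treated replicate 2, so this fit does not remove the skeletal muscle signal. Of 8 cardiac markers 4 had levels, none of them passed a test, and their mean was highest, at 7.19, in injured replicate 1; their part in the Casq2 result was not tested either. All 11 leukocyte markers were above 0 in every library, and their sum was 6065 to 10019 in inhibitor-treated, 24828 to 38998 in injured and 2577 to 3737 in sham libraries.

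**Figure D4:**
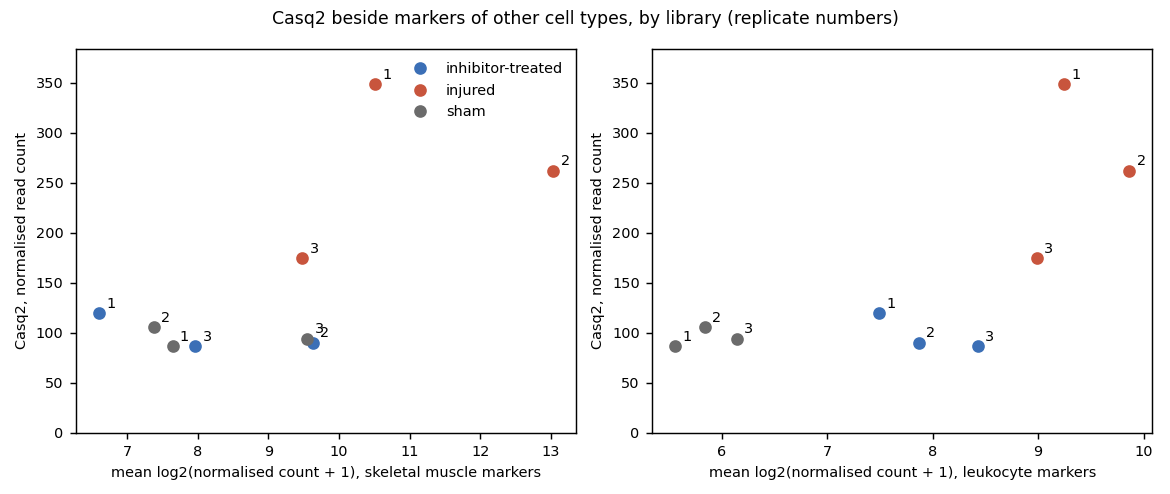
Casq2 in normalised read counts (y axis, from 0) against the mean log2 level of 22 skeletal muscle markers (left) and 11 leukocyte markers (right), 1 point per library with its replicate number. Injured replicate 2 has the highest marker levels in both panels and injured replicate 1 the most Casq2, at 348. The leukocyte levels of the 3 groups do not overlap, and the skeletal muscle levels do.

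Stim1 (ENSMUSG00000030987, chromosome 7, 102267806 to 102437319, plus strand) had the smallest log2 fold changes among the members called in both comparisons with injured arteries. It stood at 2176, 2175 and 2282 in the inhibitor-treated, 1736, 1957 and 1687 in the injured and 2179, 2301 and 2204 in the sham libraries. The injured libraries were the 3 lowest, and the other groups overlapped almost fully. It fell by 0.32 ± 0.10 with injury (adjusted p = 0.0408), and by 0.21 with quantile normalisation (adjusted p = 0.135) or library weights (adjusted p = 0.0325). The call was also lost without injured replicate 1 or 3 or any 1 sham library (adjusted p = 0.0551 to 0.138). The gain under the inhibitor was 0.31 ± 0.09 (adjusted p = 0.0336), also lost, without injured replicate 1 or any 1 inhibitor-treated library (adjusted p = 0.0666 to 0.116), and the log2 fold change was 0.20 with quantile normalisation (adjusted p = 0.132) and 0.19 with library weights (adjusted p = 0.0195). Inhibitor-treated and sham arteries differed by 0.00051 (95% interval -0.14 to 0.14, adjusted p = 0.997).

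Ordered by level per kilobase of exon, Atp2a2 led at 2512 ± 122 in inhibitor-treated, 827 ± 109 in injured and 2387 ± 281 in sham arteries (SD, n = 3 each), followed by Pln at 546 ± 20.8, 322 ± 37.7 and 405 ± 106. In inhibitor-treated arteries Itpr1, Cacna2d1, Stim1, Cacna1c, Cacna1h, Ryr2, Cacnb2 and Casq2 came next, and the ranges of Cacna2d1 and Stim1, of Cacna1h and Ryr2, and of Ryr2 and Cacnb2 overlapped. The sham order was the same, with overlap also between Pln and Itpr1 and between Cacnb2 and Casq2. In injured arteries the order after Pln was Stim1, Itpr1, Cacna2d1, Casq2, Cacna1h, Cacna1c, Ryr2 and Cacnb2. There the ranges of Stim1, Itpr1 and Cacna2d1 overlapped between neighbours, as did Cacna1h with Cacna1c and Ryr2 with Cacnb2. Casq2, last in both other groups at 36.0 ± 6.68 and 34.8 ± 3.57, stood sixth in injured arteries at 95.6 ± 31.8, and Ryr2 and Cacnb2 closed that order at 17.9 ± 5.15 and 15.2 ± 1.98.

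The genes whose pattern over the 9 libraries was most like each member were found by the root mean square difference in centred log2 level, 3 per member; this is a description of these libraries. For Atp2a2 they were Ltbp1, Tspan2 and Arhgef17 (0.0627 to 0.0753). For Itpr1 they were Peg13, Gucy1a1, a subunit of the nitric oxide receptor guanylyl cyclase, and Tmem132a (0.0724 to 0.0836). Pln was followed most closely by Sorbs2, P2rx1 and Sparcl1 (0.0799 to 0.133), Cacna1c by 2610203C20Rik, Ubp1 and the calcium pump gene Atp2b4 (0.109 to 0.115), and Cacnb2 by Npas4, Fgfr2 and Plekhg3 (0.163 to 0.171). Ryr2 was nearest to Mir27b, Gm17552 and Anxa11 (0.107 to 0.170), and Casq2 to Frrs1, Trerf1 and Clec2d (0.153 to 0.156). Cacna1h stood nearest to Susd2, Camkk1 and Ppfibp2 (0.0819 to 0.101), Cacna2d1 to Gclc, Dyrk1b and Kif3c (0.0766 to 0.0905), and Stim1 to Ubl7, Spg7 and Ciao1 (0.0419 to 0.0439). Among the members themselves the closest pairs were Cacna2d1 with Stim1 (0.153), Cacna1c with Itpr1 (0.160) and Ryr2 with Atp2a2 (0.198).

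Other genes of calcium handling, in 6 lists, were called in both directions. Over all genes tested, 16.8% fell and 20.6% rose with injury. Under the inhibitor, 17.6% of all genes were higher and 18.5% lower than in injured arteries. Counts near these shares are not read as results about a list. Values below are mean normalised counts with their SD (n = 3 each) and log2 fold changes with their SE. Of 14 other voltage-gated subunits tested, 2 fell and 2 rose with injury. Cacna1d, the other L-type pore of vessels, averaged 272 ± 15.3 in inhibitor-treated, 93.8 ± 9.15 in injured and 266 ± 20.4 in sham arteries. It fell by 1.50 ± 0.16 with injury (adjusted p = 0.000222) and was higher by 1.53 ± 0.14 under the inhibitor than in injured arteries (adjusted p = 0.000302). Cacna1a, the P/Q-type pore, rose with injury (0.79 ± 0.21) and was lower under the inhibitor (-1.06 ± 0.16). Schwann and neuronal markers averaged 7.34 to 7.65 in inhibitor-treated, 8.25 to 8.59 in injured and 6.89 to 7.53 in sham libraries on the log2 scale, and their part in this value and in that of the neuronal kinase gene Camk2a was not tested. Cacng1, the gamma subunit of the skeletal muscle channel, rose by 4.35 ± 0.76 and peaked in injured replicate 2 at 906 with the skeletal muscle markers. Between inhibitor-treated and injured arteries 2 of 14 were higher and 2 lower, Cacnb3 among the lower (-0.32 ± 0.10).

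Of 23 other genes of store release, store pumps and their partners, 5 fell and 7 rose with injury, and 5 were higher and 3 lower under the inhibitor than in injured arteries. Mrvi1, which encodes the IP3 receptor-associated substrate of cGMP-dependent kinase, averaged 7991 ± 459 in inhibitor-treated, 1895 ± 222 in injured and 8797 ± 1275 in sham arteries. It fell by 2.22 ± 0.15 with injury (adjusted p = 2.48e-05) and was higher by 2.08 ± 0.11 under the inhibitor (adjusted p = 4.91e-05). Jph2, a junctophilin that ties the store to the plasma membrane, averaged 11217 ± 305 in inhibitor-treated, 3636 ± 1695 in injured and 11197 ± 2156 in sham arteries, with log2 fold changes of -1.71 ± 0.30 with injury and 1.72 ± 0.28 under the inhibitor. Tmem38b, a counter-ion channel of the store, fell with injury (-0.996 ± 0.136), and Asph, which also encodes junctin, was higher under the inhibitor (0.98 ± 0.17). Itpr2, the type 2 IP3 receptor gene, rose with injury (0.68 ± 0.17) and was lower under the inhibitor (-0.41 ± 0.12), the reverse of Itpr1. Fkbp1b and Sri, whose products bind ryanodine receptors, were also lower under the inhibitor (-0.89 ± 0.16 and -0.60 ± 0.09). Atp2a1 and Trdn, the pump and triadin of skeletal muscle, rose with injury (3.15 ± 1.02 and 4.04 ± 0.88) and reached 62680 and 7071 counts in injured replicate 2, where the skeletal muscle markers peaked. Atp2a1 is itself among those markers, so its peak there is not separate from theirs.

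Of 18 genes listed with store-operated and other calcium entry, not all of them calcium pores, 4 fell and 7 rose with injury. Of 19 tested between inhibitor-treated and injured arteries 5 were higher and 6 lower. Orai2, a pore that STIM proteins open, averaged 82.7 ± 19.2 in inhibitor-treated, 223 ± 10.4 in injured and 52.1 ± 8.49 in sham arteries. Its log2 fold change was 2.08 ± 0.20 with injury (adjusted p = 0.000108) and -1.45 ± 0.21 under the inhibitor (adjusted p = 0.00171). The ATP-gated channel genes P2rx7 and P2rx4 rose with injury (1.62 ± 0.15 and 1.23 ± 0.12) and were lower under the inhibitor (-1.46 ± 0.15 and -1.29 ± 0.12). Leukocytes express both, and leukocyte markers moved the same way (10 of 11 rose with injury and 7 of 11 were lower under the inhibitor). Their part in these values and in those of Orai2 was not tested. Pkd1 (polycystin 1), Trpm4 and Trpc1 fell with injury (-1.53 ± 0.31, -0.98 ± 0.13 and -0.75 ± 0.18), and Pkd1 and Trpm4 were higher under the inhibitor (1.58 ± 0.32 and 0.96 ± 0.12). Trpc6, a receptor-operated cation channel gene, was the only gene of the 6 lists called between inhibitor-treated and sham arteries. It stood at 314, 651 and 172 in the inhibitor-treated, 79.9, 97.7 and 126 in the injured and 17.0, 17.6 and 24.0 in the sham libraries. The groups did not overlap, and inhibitor-treated arteries were higher than sham arteries by 4.03 ± 0.43 (adjusted p = 0.00131) and than injured arteries by 1.71 ± 0.45 (adjusted p = 0.0228). Erythroid markers were also highest in the inhibitor-treated libraries, at mean log2 levels of 9.96, 10.9 and 9.88 in replicates 1, 2 and 3. They lay at 3.45 to 4.12 in injured and 3.97 to 4.66 in sham libraries, and their part in the Trpc6 values was not tested.

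Of 9 genes of calcium export across the plasma membrane 5 fell and 1 rose with injury, and 4 were higher and 1 lower under the inhibitor. Slc24a3, a potassium-dependent sodium-calcium exchanger, averaged 1944 ± 93.7 in inhibitor-treated, 326 ± 72.9 in injured and 2188 ± 71.3 in sham arteries. It fell by 2.78 ± 0.17 with injury (adjusted p = 1.76e-05) and was higher by 2.60 ± 0.17 under the inhibitor (adjusted p = 8.73e-05). Slc8a2, a sodium-calcium exchanger, averaged 781 ± 7.35 in inhibitor-treated, 192 ± 6.85 in injured and 798 ± 83.9 in sham arteries. Atp2b2 fell with injury (-1.22 ± 0.25), and Atp2b4, a plasma membrane pump, was higher under the inhibitor (1.17 ± 0.12). Atp2b1, the widely expressed pump of that family, rose with injury (0.97 ± 0.13) and was lower under the inhibitor (-0.91 ± 0.11).

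Of 10 genes of mitochondrial calcium uptake and exchange, which do not all promote uptake, 2 fell and 5 rose with injury, and 2 were higher and 5 lower under the inhibitor. Mcub, the subunit that dampens the mitochondrial uniporter, averaged 83.1 ± 10.0 in inhibitor-treated, 410 ± 74.0 in injured and 90.9 ± 21.3 in sham arteries. It rose with injury (2.17 ± 0.22, adjusted p = 0.000175), as did Mcu, the pore (0.67 ± 0.13), and Slc8b1, the mitochondrial sodium-calcium exchanger (0.81 ± 0.15). Mcur1 and Letm1 fell (-0.61 ± 0.11 and -0.58 ± 0.12). Under the inhibitor Mcub, Slc8b1 and Micu2 were lower than in injured arteries (-2.28 ± 0.18, -0.72 ± 0.14 and -0.57 ± 0.08), and Mcur1 and Letm1 were higher (0.57 ± 0.10 and 0.35 ± 0.10).

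Of 19 genes of calmodulin, its kinases and calcineurin, 5 fell and 6 rose with injury, and 5 were higher and 4 lower under the inhibitor. Mylk, the myosin light chain kinase gene, which is also among the smooth muscle markers, averaged 41664 ± 740 in inhibitor-treated, 16886 ± 1033 in injured and 38104 ± 3837 in sham arteries. It fell by 1.18 ± 0.16 with injury (adjusted p = 0.000700) and was higher by 1.31 ± 0.11 under the inhibitor (adjusted p = 0.000216). Rcan2, an inhibitor of calcineurin, and Camk2g, a calmodulin-dependent kinase, fell with injury (-2.41 ± 0.12 and -0.89 ± 0.15) and were higher under the inhibitor (2.26 ± 0.10 and 0.97 ± 0.11). Ppp3ca, the catalytic subunit of calcineurin, and Nfatc2, a transcription factor that calcineurin activates, rose with injury (1.24 ± 0.24 and 1.84 ± 0.20) and were lower under the inhibitor (-1.25 ± 0.24 and -1.36 ± 0.18). Leukocyte markers moved the same way as Nfatc2, and their part in its values was not tested. Camk2a rose by 2.49 ± 0.72 with injury and was lower under the inhibitor (-2.82 ± 0.80), with its peak of 1210 counts in injured replicate 2.

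Some of these calls rest on a few libraries. Against sham, those of Atp2a1, Cacna1a, Camk2a and Itpr2 were lost without sham replicate 1 or without sham replicate 2 (adjusted p = 0.0546 to 0.145). That of Atp2a1 was also lost with all 9 libraries in 1 fit (adjusted p = 0.0672), DESeq2 and the authors' deposited table gave it no adjusted p, and its log2 fold change was 1.89 without injured replicate 2 and 5.45 with library weights. Camk2a was at 1.64 without injured replicate 2 and at 4.04 with library weights, and Cacna1a lost its call with quantile normalisation (adjusted p = 0.0541). Jph2 kept its call with library weights, at -1.13 with injury and 1.11 under the inhibitor. Between inhibitor-treated and injured arteries, Cacnb3, Camk2a, Itpr2, Letm1 and Trpc6 each lost theirs without 3 to 5 of the 6 libraries in turn (adjusted p = 0.0547 to 0.143). Another fit left out inhibitor-treated replicate 2, injured replicate 2 and sham replicate 3, the library highest in skeletal muscle markers in each group. Injured replicate 1, also high in them, stayed in. With this omission Letm1, Mcu and Trpc1 lost their calls for injured against sham (adjusted p = 0.0634 to 0.0818). Under the same omission Fkbp1b, Mcur1, Pkd1, Ppp3ca, Slc8b1, Cacnb3, Itpr2, Letm1 and Trpc6, 9 genes, lost theirs for inhibitor-treated against injured (adjusted p = 0.0657 to 0.205). Each of these kept its direction. Between inhibitor-treated and sham arteries, 0 genes of the other 5 lists were called.

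**Figure D5:**
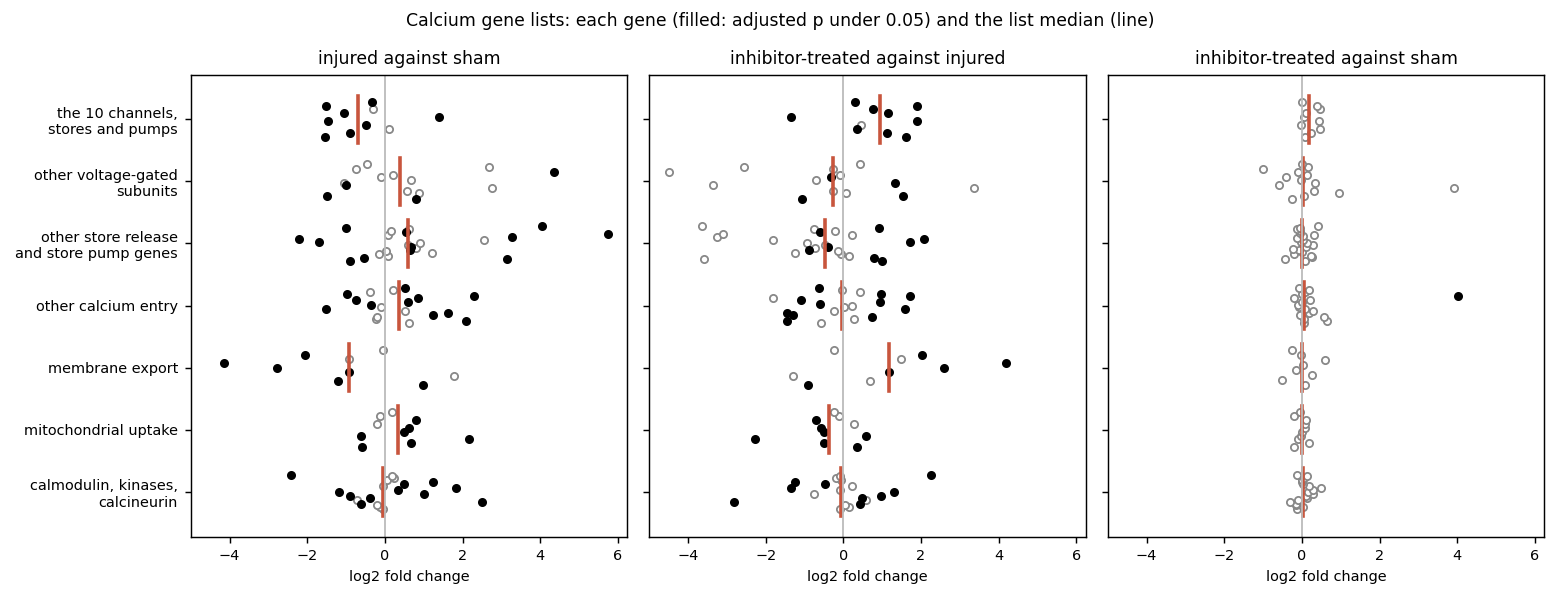
Log2 fold changes (x axis) of the 10 genes and of 6 other lists of calcium genes (rows) in each comparison; each point is a gene, filled with an adjusted p under 0.05, and the vertical line is the list's median. The 10 genes and the membrane export genes lie mostly left of 0 in injured against sham arteries and right of 0 in inhibitor-treated against injured arteries, the other lists spread to both sides, and in inhibitor-treated against sham arteries 1 point, Trpc6, is filled.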

How the data were processed

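RNA from the media of mouse femoral arteries was measured in 9 libraries. Per the file headers, each of the 3 deposited tables holds 1 pair of groups, with normalised read counts, log2 fold changes, p-values and adjusted p-values. The deposited signal is read counts that the authors divided by 1 factor per library and table, read from the values: whole reads came back for 100% of values within 0.01. The authors' log2 fold changes and p-values were used only where named. The build was GRCm38 (mm10), per the submitters' processing notes; no source used here gives the aligner, the counter or its use of strand.

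Each comparison was tested in its own table with limma 3.58.1 (R 4.3.3, trended variance, two-sided) on log2(normalised count + 1), which understates the change of low genes, with a mean of at least 10 over 6 libraries and Benjamini-Hochberg adjustment over all genes (threshold 0.05). The design named edgeR for raw counts; limma was used because the values are normalised. Levels over 3 groups were rescaled with 1 median-of-ratios factor per library over 16750 genes. The 17 alternatives per comparison include edgeR 4.0.16 and DESeq2 1.42.0 on recovered reads. On simulated reads with the same dispersion for all genes, 89% to 94% of the 100 genes per comparison changed by 1 on the log2 scale were recovered. Those genes had a mean of at least 100, so the share does not cover lower genes or genes that vary more between replicates. Replicates correlated at 0.953 to 0.987 and none was a repeat. Exon lengths come from GENCODE. The 10 genes and all lists were chosen with earlier results of these data known. Named genes of the other lists are up to 3 per direction with the largest change, a mean normalised count from 100 upwards and groups that do not overlap.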

Additional observations from a re-analysis of the deposited data

How the results depend on the processing

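Under the 17 alternatives of each comparison, Cacna1c, Cacnb2, Ryr2, Itpr1 and Atp2a2 kept direction and call in both comparisons with injured arteries, as did Casq2 for injured against sham and Pln for inhibitor-treated against injured. Cacna2d1 lost its call against sham in 10 alternatives and Stim1 in 8, among them quantile normalisation and the replicate block; under the inhibitor Cacna1h and Stim1 lost theirs in 7 each, and Cacna2d1 gained one in 5. The cause was not tested. The count of genes called was 9621 (injured against sham) and 10651 (inhibitor-treated against injured) with library weights. It was 2842 and 503 (inhibitor-treated against injured and against sham) without the library highest in skeletal muscle markers in each group. In that fit 0 of the 10 genes were called lower in inhibitor-treated than in injured arteries. Casq2 kept its direction there, at -1.27, without passing (adjusted p = 0.0862). Between inhibitor-treated and sham arteries, leaving out 1 library gave 518 to 854 genes (518 and 596 without sham replicate 1 or 2, 598 and 533 without inhibitor-treated replicate 1 or 2) and 0 to 3 of the 10 genes, the 3 being higher without sham replicate 2. The replicate numbers pair no libraries in the labels, and deviations of same-numbered libraries correlated at -0.159 to 0.339; with the replicate block 5762, 5747 and 877 genes and 6, 7 and 0 of the 10 were called. Uncalled differences that changed sign were Cacna1h with injury (-0.0079 to 0.32 without 1 library) and, against sham under the inhibitor, Casq2 (-0.18 with quantile normalisation, -0.091 to 0.14 without 1 library), Stim1 (-0.0059 with quantile normalisation, -0.0082 with weights, -0.011 with all 9 libraries fitted, -0.025 to 0.019 without 1 library), Cacna2d1 (-0.077 to 0.022) and Atp2a2 (-0.0057 to 0.15). With 3 libraries a group, the smallest called log2 fold change among these genes was 0.31 and the largest uncalled one 0.47.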
